A study of Homo sapiens with 11 samples.

Results

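The sites described here are CTCF summits of wild-type cells that had no counterpart in cells lacking ORC2 and had one again after ORC2 was put back. They were selected on the deposited summit lists themselves: a WT summit counted when a rescue summit lay within 500 bp and no summit of the ORC2 deletion list lay within 500 bp. This rule chose 431 of the 19044 WT CTCF summits. Presence and absence in the 3 lists are therefore how the sites were chosen and not a finding about them. Below, "lost" and "restored" mean only absent from the deletion list and present in the rescue list at this distance.

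CTCF-bound DNA was mapped by CUT&RUN, in which a nuclease brought to a protein by an antibody cuts out the DNA around it. All cells were HCT116 p53-/-, a human colorectal cancer line without the tumour suppressor p53, so the cells called WT also lack it. The ORC2 deletion cells were 1 clone made with CRISPR/Cas9, and the rescue cells were selected clones carrying ORC2 on the plasmid pLHCX. The 11 libraries formed 6 groups, a CTCF antibody group and an IgG background group per genotype, with 2 libraries each except the rescue IgG group with 1. Each CTCF group is present as 1 summit list that names no replicate, so no difference below has a replicate check. CUT&RUN does not measure ORC2 itself, and these lists do not check the deletion. It also cannot tell a site that is empty in every cell from one that is bound in fewer cells.

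CTCF is a zinc finger protein that binds a long, conserved DNA motif. It stops the cohesin ring as it extrudes chromatin and so sets the ends of many loops and domains. It also sits at insulators and at a part of all promoters. ORC2 is a subunit of the origin recognition complex, which marks replication origins and loads the replicative helicase before S phase.

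Sequence at these sites could be read where they fall in a promoter, since RefSeq (GRCh38.p14) promoter sequences were at hand for 34961 gene starts, each 250 bases before to 50 after the start. Of these windows, 39 held a lost and restored summit, and they covered 34 such summits. The core of the CTCF motif was searched as CCNNNAGNNGGC on both strands, and 5 of the 39 windows held it (12.8%, 95% Wilson interval 5.60 to 26.7). The matches below are exact matches to this core. Windows were not scored for likeness to the longer CTCF motif, so closer forms of it may lie elsewhere in these promoters. They run 5′ to 3′ along the strand of the named gene, with the match in capitals. They belong to NOC3L, a nucleolar protein of ribosome assembly, to PTGES2-DT, a transcript divergent from the prostaglandin E synthase gene PTGES2, and to CSE1L, an export receptor. The match shown for PTGES2-DT is also the one counted in the promoter of PTGES2 on the other strand. The match of the fifth window, that of ZMAT3, crosses the gene start and is not printed.
NOC3L, chr10:94363015-94363044, minus strand: agacagtcaCCGCGAGAGGGCgcgagcccg
PTGES2-DT, chr9:128128447-128128476, plus strand: gcccggcgcCCGAGAGGGGGCgggactcgc
CSE1L, chr20:49046258-49046287, plus strand: gccccgcccCCTGCAGCGGGCcgctcgctc

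For comparison, the next sequences come from promoters with a WT summit that was present in all 3 lists. Both are protein-coding, are among those with the highest WT values, and have a match upstream of the start within 50 bp of the summit. The centre of the match lay 15 bp from the summit in ANKRD6, a signalling adaptor with ankyrin repeats, and 30 bp in DHX8, a splicing helicase. The summits of ANKRD6 had values of 18.8 in WT, 22.6 in the deletion and 9.11 in the rescue list, and those of DHX8 17.5, 8.16 and 9.95. In the lost and restored promoters the match lay 66 to 136 bp from the WT summit, and none of the 5 lay within 50 bp. Among the 231 promoters with a summit in all 3 lists and a match, 71 had it within 50 bp, and the median distance was 88 bp against 84 bp for the lost and restored ones. With a summit of the WT list alone 12 of 35 had it within 50 bp (median 84 bp). With a deletion but no rescue partner 16 of 49 did (median 86 bp). The 5 windows are too few to set apart from these.
ANKRD6, chr6:89432984-89433013, plus strand: tggccccacCCAGGAGAGGGCtgcagatcg
DHX8, chr17:43483796-43483825, plus strand: tttttctcgCCTGTAGAGGGCgcagatcgg

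Most lost and restored promoter summits had no core match in their window. The next stretches surround the 4 protein-coding promoter summits with the highest WT values, none of whose windows holds a match, with the summit base in capitals. KIAA0319L lies on chromosome 1, VKORC1 encodes the warfarin-sensitive vitamin K reductase, NEMP1 encodes a nuclear envelope protein, and POLQ encodes DNA polymerase theta. The summit lay at -119, -135, -139 and -138 bp from the respective gene start. Absence of these letters says nothing about a longer or degenerate CTCF motif.
KIAA0319L, chr1:35557508-35557537, minus strand: acccgcccagcactgCccctcctccccctt
VKORC1, chr16:31094918-31094947, minus strand: cacgtcccttacccgCttcactagtcccgg
NEMP1, chr12:57078916-57078945, minus strand: gaaagctgcttttccCgccctctctcttca
POLQ, chr3:121546112-121546141, minus strand: ctctttaatctatctCtcatattaaccaac

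The core was found in 37.6% of the 614 promoters with a WT summit present in all 3 lists (33.9 to 41.5). It was found in 22.7% of 216 promoters whose WT summit had a deletion but no rescue counterpart (17.6 to 28.7), and in 21.3% of 164 with a summit of the WT list alone (15.8 to 28.2). Of all 34961 promoters 10.6% held it, and the interval of the 12.8% in lost and restored promoters includes that level. It also includes the 21.3% and 22.7% of the other weak classes, so no difference from them was detectable with 39 windows. Only the interval of the promoters present in all 3 lists lay wholly above it. Among summits with a WT value under the list median, 4 of 29 lost and restored promoters (13.8%, 5.50 to 30.6) and 68 of 199 promoters present in all 3 lists (34.2%, 27.9 to 41.0) held the core, though these intervals overlap. The stricter spelling CCANNAGGGGGC was found in 0 of 39, with a Wilson upper bound of 8.97%, against 5.54% of the 614 and 0.355% of all. The median GC content was 63.0% in the lost and restored promoters, 63.7% in those present in all 3 lists and 58.7% over all promoters. The median number of CG dinucleotides per window was 23 in both classes and 14 over all promoters. Some windows overlap or share a summit, so they are not independent, and the intervals cover counting error only.

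**Figure D1:**
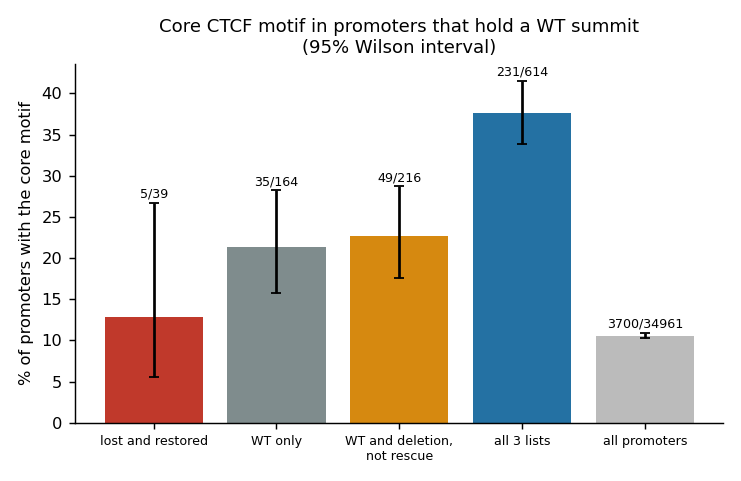
Share of RefSeq promoter windows of 300 bases that hold the CTCF core motif, by the class of the WT summit they contain and for all promoters. Bars are percentages and error bars 95% Wilson intervals. The lost and restored class is at 12.8% of 39. Its interval includes all promoters (10.6%), WT alone (21.3%) and WT and deletion, not rescue (22.7%). The class present in all 3 lists is at 37.6%.

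Each summit carries the −log10 of its q value, which grows with the strength of a peak and with depth, and which is ranked here only within its own list. The lost and restored summits were mostly weak ones. Their WT values ran from 1.32 to 28.0 with a median of 4.18 (95% interval 4.01 to 4.52), while the median of the whole WT list was 6.18. In the rescue list their partners ran from 1.34 to 33.9 with a median of 4.72 (4.32 to 5.01), while that list's median was 6.58. Of the 431 summits, 327 (75.9%) lay below the median WT value. At a value of at least 10 stood 27 of them in WT, 34 in rescue and 14 in both. The other classes had median WT values of 7.31 (present in all 3 lists), 4.30 (WT and deletion, not rescue) and 2.59 (WT alone). These values come from the lists that chose the summits and are given as a description.

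WT and rescue summits lay close together, at a median distance of 76 bp (67 to 90), and 251 of the 431 pairs were within 100 bp. The 14090 summits present in all 3 lists had a median distance of 62 bp. A pair of WT summits on chromosome 1, at 192445881 and 192446296, shared 1 rescue summit, which left 430 distinct rescue summits. The WT and rescue values of a site ranked alike only in part, with a Spearman's rho of 0.275 over the 431 sites against 0.572 over the 14090. Both are descriptions over sites that share 2 lists.

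**Figure D2:**
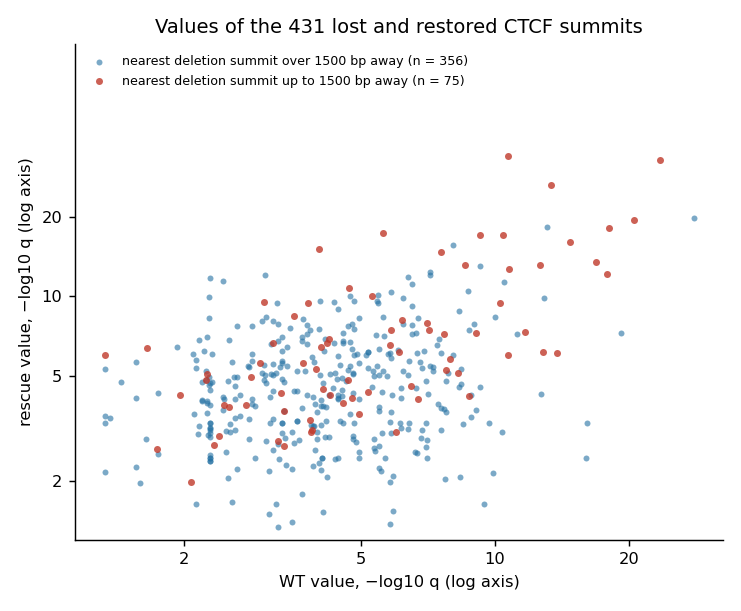
WT value (x) against rescue value (y), both −log10 q on log axes, 1 point for each of the 431 lost and restored CTCF summits. Red points have a deletion summit 501 to 1500 bp away (75 sites) and blue points do not (356). Most points lie below 10 on both axes, and red points make up 16 of the 27 with a WT value of at least 10.

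The background of the rule was as follows. Without a deletion summit within 500 bp were 1995 of the 19044 WT summits (10.5%), without a rescue summit 4523 (23.8%), and the lost and restored summits were 2.26% of the list. Nothing is read from these shares, because the rule used them, and because the deletion list, with 31112 summits, was longer than the rescue list with 20810. With the lists cut to equal length by value the rule chose 1729 sites, of which 374 were among the 431, and at a distance of 100 bp it chose 2235. Of the 1995 lost summits 21.6% were restored. With the WT list split by value into 10 classes of equal size, this share was 66.7% in the highest class (10 of 15) and 9.28% in the lowest (79 of 851). Of WT summits with a deletion partner, 1872 had a rescue partner and 18 had none in the highest class, and 544 and 510 in the lowest. A rescue partner was thus rarer at low WT values for lost and kept summits alike, and no preference for strong sites is read from this fall.

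**Figure D3:**
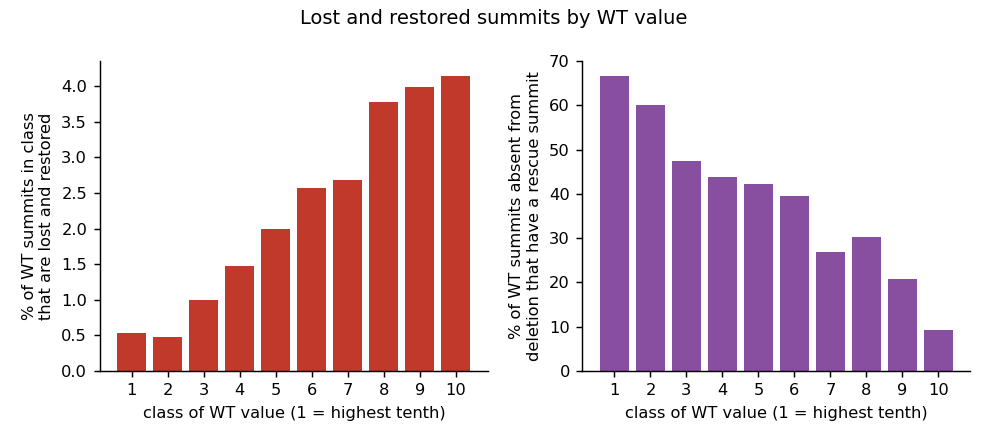
WT summits in 10 classes of WT value of equal size, with class 1 the highest. Left, the share of each class that was lost and restored, from 0.525% in the highest class to 4.15% in the lowest. Right, the share of lost summits with a rescue counterpart, from 66.7% to 9.28%. Rescue counterparts were also rarer in the lowest class among WT summits that had a deletion counterpart, which are not shown.

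The nearest deletion summit lay from 501 to 1037069 bp away, with a median of 16614 bp (12522 to 20815). For 75 of the sites it lay 501 to 1500 bp away. Their median values were 4.94 in WT and 6.13 in rescue, and that deletion summit had a median value of 14.0. Within these 75, the 58 sites at 501 to 1000 bp had medians of 5.24, 6.49 and 14.1. The 17 sites at 1001 to 1500 bp had 4.25, 4.25 and 7.06, near those of the remaining sites. The other 356 sites had medians of 4.11 in WT and 4.41 in rescue, and their nearest deletion summit one of 7.71, near the median of 8.06 of the whole deletion list. Among the 27 sites with a WT value of at least 10, 16 had a deletion summit within 1500 bp and 11 did not. Several of the strongest sites thus had a strong deletion summit 501 to 1500 bp away, beyond the distance of the rule.

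At the edge of the rule the values ran on. WT summits with a rescue partner and a deletion summit 401 to 500 bp away, which the rule left out, numbered 38 and had a median WT value of 4.71 (range 1.56 to 14.0). The 14 that it took in, with a deletion summit 501 to 600 bp away, had a median of 5.69 (1.96 to 14.8). On the rescue side, 12 sites taken in with the rescue summit 401 to 500 bp away had a median of 3.75, and 19 left out at 501 to 600 bp had 3.60.

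The authors' deposited table of down regions gives positions only and does not name the samples compared. It overlapped 359 of the 431 sites (83.3% of them) in 358 of its 364 regions (98.4% of those). Of all WT summits 365 of 19044 (1.92%) lay in it. Of those in the WT list alone 1 of 1564 did, and of those with a deletion but no rescue partner 0 of 2959. Lost summits that were not restored were thus almost absent from this table. The 72 sites outside it had their nearest deletion summit at a median of 709.5 bp, against 21956 bp for the sites inside it. Of the 75 sites with a deletion summit 501 to 1500 bp away 20 were in that table, and of the other 356 sites 339 were. None of the 431 lay in the authors' up regions. Nothing is read from this, because the rule took only sites without a deletion summit within 500 bp.

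An IgG summit of some genotype lay within 1 kb of 3 sites (0.696%, against 0.126% of all WT summits), and 2 of these were among the 25 strongest by WT value. The site at 143264679 on chromosome 1 had the second highest WT value, 23.5, with 32.8 in rescue, and a deletion IgG summit of 34.4 stood at the same base. The site at 46399520 on chromosome 16 had the highest rescue value, 33.9, with 10.7 in WT, and IgG summits of all 3 genotypes lay within 12 bp of it. The third, at 143213211 on chromosome 1 and 99th by WT value, had 6.38 in WT and 11.9 in rescue, with a deletion IgG summit 10 bp away. Leaving out these 3 left 428 sites.

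A protein-coding gene within 50 kb gave a name to 363 of the sites, through 358 genes, and 212 sites lay inside such a gene. The strongest named site lay outside PHACTR3, a phosphatase and actin regulator, 5855 bp from it on chromosome 20 at 59571654. Its value was 28.0 in WT and 19.7 in rescue, and the nearest deletion summit stood 11025 bp away with a value of 4.83. Of the named sites with a WT value over 15, this one, RPP40, F13A1 and TRIM38 had no deletion summit within 1500 bp.

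The RPP40 site, at 5003921 on chromosome 6, lay 116 bp from the start of this gene for an RNase P subunit, with 19.2 in WT and 7.26 in rescue and no deletion summit nearer than 26891 bp. Inside F13A1, the coagulation factor XIII A subunit, the site at 6315945 had 16.1 in WT and 3.32 in rescue, and the deletion list was empty for 231472 bp around it. Near TRIM38, a ubiquitin ligase of the TRIM family, the site at 26003391 had 16.0 in WT and 2.45 in rescue. These 3 sites stood high in the WT list. They lie on the short arm of chromosome 6, in its first 30 Mb, where 62 of the 193 WT summits were lost. In the rescue list RPP40 stood above the median of 6.58 and F13A1 and TRIM38 below it.

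Another 4 strong sites differed in their place in the rescue list. CLIC6, of the chloride intracellular channel family, held a site at 34688214 on chromosome 21 with 13.1 in WT and 18.3 in rescue, and its nearest deletion summit was 5118 bp away. The site 9822 bp from TMA16, a ribosome biogenesis factor, had 10.5 and 11.3. SLC39A9, a zinc transporter, held a site with 12.7 and 4.26, and ABCB1, the multidrug efflux pump, one with 10.3 and 3.07. CLIC6 and TMA16 thus stood above the rescue list's median of 6.58, and SLC39A9 and ABCB1 below it. For each of these 4 the nearest deletion summit was over 5000 bp away.

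The second group of strong sites had a deletion summit close by. PARD3, a cell polarity scaffold, held a site at 34638774 on chromosome 10 with 20.6 in WT and 19.4 in rescue, and a deletion summit of 25.7 stood 1150 bp away. In ACER3, an alkaline ceramidase, the values were 18.0 and 18.2, with a deletion summit of 17.5 at 715 bp. Near FOSB, an AP-1 transcription factor, they were 17.9 and 12.1, with one of 16.2 at 632 bp. The deletion list thus held strong summits beside all 3 of these sites.

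The same held for LBX1, a homeobox factor (16.9 in WT, 13.5 in rescue, deletion summit of 36.1 at 1130 bp), and for TYW3, a tRNA modifying enzyme (14.8 and 16.0, with 15.7 at 572 bp). CYP11A1, the cholesterol side-chain cleavage enzyme, had 13.3 in WT and 26.3 in rescue, with a deletion summit of 25.4 at 753 bp. In SLC8A2, a sodium-calcium exchanger, the site had 11.7 and 7.33, and the deletion summit 621 bp away had 40.9. ZDHHC22, a palmitoyltransferase, had 10.4 and 17.0, with 36.2 at 566 bp. Both of these deletion summits lay far above the median of 8.06 of their own list. The remaining named sites among the 25 with the highest WT values were those of NMD3, a ribosome export adaptor, POMK, a kinase of O-mannose glycans, SLURP1, a secreted Ly6 protein, and LIMCH1, a regulator of non-muscle myosin. Their WT values were 13.8, 12.8, 12.6 and 10.8, and each had a deletion summit 513 to 1069 bp away. Of the 25, 5 had no protein-coding gene within 50 kb.

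The 10 further sites with the highest rescue values had lower WT values. XPO4, an exportin, had 5.59 in WT and 17.4 in rescue, and RFX2, a transcription factor of ciliated cells, 9.23 and 17.1. HOXC9, a homeobox gene, had 8.02 and 15.6, with the nearest deletion summit 10440 bp away. CYP27C1, a retinoid desaturase, had 4.01 and 15.2, and POLQ 7.57 and 14.7. SKAP1, an adaptor of T-cell signalling, had 8.55 and 13.1, and a site on chromosome X with no protein-coding gene within 50 kb had 9.24 and 12.97. TMEM132E had 7.14 and 12.3, TPM3, a tropomyosin, 3.04 and 12.05, and AGBL4, a carboxypeptidase, 7.14 and 12.04. The deletion list had a summit 521 to 779 bp from those of XPO4, RFX2, CYP27C1, POLQ and SKAP1, and none within 5000 bp of the other 5.

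Lost and restored sites lay in genes about as often as other CTCF sites. Inside a gene of any type were 61.0% of them (263 of 431, 56.3 to 65.5), against 58.9% of the summits present in all 3 lists and 59.4% of all WT summits. The gene table gives spans without exons or UTRs, so exonic and intronic sites were not told apart. Without any gene within 50 kb were 5.10% (22 sites, 3.39 to 7.61), against 2.64% of all WT summits, 5.24% of those in the WT list alone and 3.41% of those with a deletion but no rescue partner. Only 5 genes, AGBL4, CNOT4, HIBADH, SKAP1 and SLCO3A1, gave their name to 2 sites, and none to more.

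They lay near gene starts more often than summits present in all 3 lists, but not more than the other weak classes. Gene starts on chromosome 8 were not used here, which left 410 of the sites. Within 1 kb of a start were 73 of them (17.8%, 14.4 to 21.8), against 10.8% of the summits present in all 3 lists (10.3 to 11.3) and 12.3% of all WT summits. Among WT summits without both partners the share was 19.3% (17.4 to 21.4), and with a deletion but no rescue partner 15.3% (14.0 to 16.6). Weighting the summits present in all 3 lists to the WT values of the lost and restored ones gave 9.72%, so the gap was as large at matched values. The interval of the 410 sites overlapped those of the other weak classes. For starts of protein-coding genes the share was 15.6% (64 of 410) against 8.27% of the summits present in all 3 lists. The share within 1 kb of a start was 13.3% for the sites chosen with equal list lengths and 12.1% for those chosen at 100 bp.

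**Figure D4:**
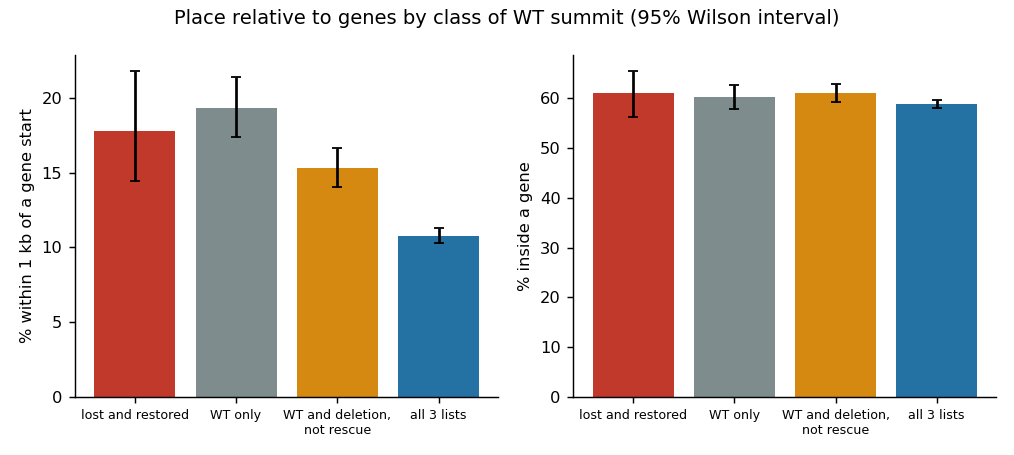
Place of WT summits relative to RefSeq genes in 4 classes: lost and restored, WT alone, WT and deletion, and all 3 lists. Bars are percentages of summits and error bars 95% Wilson intervals. The share inside a gene is alike across the classes (58.9% to 61.1%), and the share within 1 kb of a start is 17.8% for lost and restored and 10.8% for all 3 lists.

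The 10 strongest of the 64 sites at protein-coding starts were led by RPP40. The next was the site of TYW3, 767 bp from the start of its neighbour CRYZ, a quinone reductase. KIAA0319L had 9.43 in WT and 1.64 in rescue, CNOT4, a ubiquitin ligase of the CCR4-NOT complex, 8.81 and 4.22, and VKORC1 8.24 and 5.14. NEMP1 had 8.03 and 6.01, PSMC3IP, a recombination cofactor, 7.77 and 5.26, and CPT1A, the carnitine palmitoyltransferase of fatty acid oxidation, 7.74 and 4.79. POLQ and ZNF565, a zinc finger gene whose start lies beside its neighbour ZNF146, completed the 10, the latter with 7.25 and 5.41. All 10 lay above the WT list's median, and in the rescue list the sites at RPP40, CRYZ and POLQ lay above the median and the other 7 below it. The deletion list had a summit of 6.51 at 613 bp from the PSMC3IP site and of 5.57 at 1180 bp from that of VKORC1. It also had one 572 bp from the CRYZ site and 556 bp from that of POLQ, and none within 1500 bp of the rest.

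Sites were assigned to 26 gene lists by the gene that names them, and the shares are set beside the 2.21% of all WT summits with a protein-coding gene within 50 kb (363 of 16434) that were lost and restored. Over all the lists, 57 of 2087 WT summits were lost and restored. Genes of replication licensing and origin firing, the machinery of ORC2, had 0 of 17 summits, with a Wilson upper bound of 18.4%. Among cohesin and loop extrusion genes 1 of 34 was, that of SMC4, a condensin subunit. The larger lists lay near the background, with 11 of 436 summits for solute carriers and other transporters, 8 of 251 for zinc finger genes and 6 of 234 for ubiquitin genes.

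Small lists held single sites of known genes. HOX genes had 2 of 20, HOXC9 and HOXB8, ribosomal proteins 3 of 57, RPS23, RPL5 and RPL30, and the TRIM family 3 of 32, TRIM38, TRIM56 and TRIM25. Developmental transcription factors had 5 of 176, of which FOXI1, FOXO6, EN1 and FOXJ1 were the strongest. Intestinal genes had 2 of 49, CDH1, which encodes E-cadherin, and CEACAM1. The CDH1 site had 10.3 in WT and 9.43 in rescue, and a deletion summit of 12.8 lay 596 bp away. Genes of the p53 response had 1 of 22, ZMAT3, in cells that lack p53. Histone, Polycomb, TGF-beta and mesenchymal genes had 0 of 18, 0 of 45, 0 of 30 and 0 of 30. The TRIM share was 9.38% (3.24 to 24.2) and the HOX share 10.0% (2.79 to 30.1). Both intervals begin just above the 2.21% of all such summits, on 3 and 2 sites among 26 lists looked at.

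The other lists had 1 or 2 sites each. Protocadherins had 1 of 4 (PCDHA9, interval 4.56% to 69.9%), olfactory receptors 1 of 64 (OR2T11), ion channels 1 of 176 (CACNA1A) and cell cycle genes 1 of 34 (AURKB). WNT genes had 1 of 70 (DKK3), haematopoietic genes 1 of 18 (F13A1) and actin genes 1 of 56 (PHACTR3). RNA processing genes had 2 of 23 (RPP40 and TMA16, 8.70%, 2.42 to 26.8) and synaptic genes 2 of 145 (SYT13 and CADM3). Several of these are the strong sites described above, F13A1, PHACTR3, RPP40 and TMA16 among them.

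Chromosome X held 28 of the sites, 6.68% of its 419 WT summits (4.66 to 9.49). On the autosomes the share ran from 0.725% on chromosome 21, with 1 of 138, to 3.0% on chromosome 18, with 10 of 333, and it was 2.16% over all of them. WT values on X were low, with 72.3% of its summits below the median of the list, and the autosomal share weighted to those values was 2.74%. On X the deletion list was 1.46 times as long as the WT list, against 1.64 times elsewhere, and the rescue list 1.07 times against 1.09. These values stand beside the share, and their part in it was not tested. Lost summits without a rescue partner were also more frequent on X, with 60 of 419 (14.3%) against 8.08% elsewhere, as were lost summits in all, with 88 (21%) against 10.2%. The X sites were spread from 11559196 to 155057446, and their values were modest, with a median of 3.89 in WT and 5.21 in rescue and a highest WT value of 9.24.

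Genes at X sites, named after their values were seen, included XIAP, an inhibitor of caspases (7.05 in WT, 2.45 in rescue) and COL4A5, a basement membrane collagen (5.44 and 10.1). TSR2, a chaperone of ribosome assembly, had 2.28 and 11.8 at its promoter. Of the 28 sites 24 lay in the authors' down table. COL4A5 and TSR2 thus stood above the rescue list's median, and XIAP below it.

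**Figure D5:**
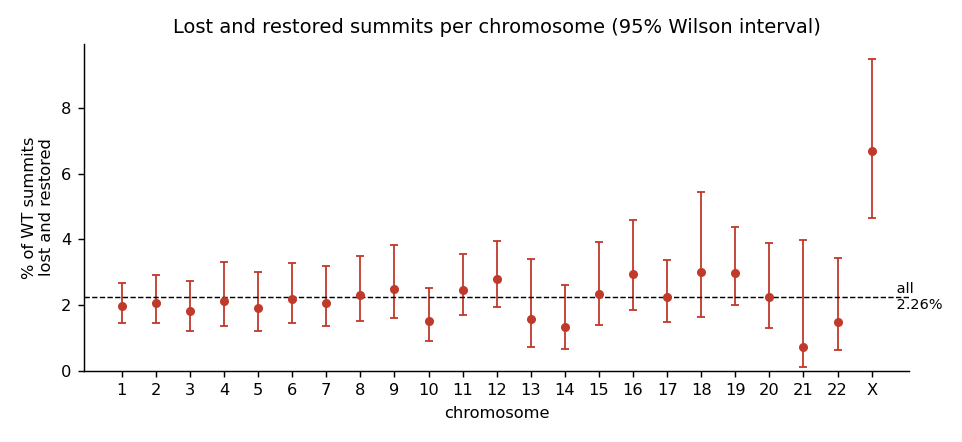
Lost and restored summits as a share of the WT summits of each chromosome, as points with 95% Wilson intervals, and a dashed line at the share over all chromosomes (2.26%). Chromosome X stands at 6.68%, and the autosomes lie between 0.725% and 3.0%.

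Few sites lay near each other. Joined within 100 kb, the 431 sites made 418 groups, of which 12 held more than 1 site, 25 sites in all. The largest, with 3 sites, ran from 143202308 to 143264679 on chromosome 1 and holds the site with the second highest WT value and both sites of this chromosome near IgG summits. The first 30 Mb of chromosome 6 held 7 of the sites, 3.63% of its 193 WT summits (1.77 to 7.30), RPP40, F13A1 and TRIM38 among them. Lost summits were frequent in this segment, with 62 of the 193 against 1995 of 19044 over all WT summits. Of those 62, 11.3% were restored, against 21.6% over all.

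Around the sites, from 1 to 100 kb on both sides, a range the rule did not use, the deletion list had more summits than the WT list. A site had a mean of 2.40 WT, 3.67 deletion and 2.68 rescue summits there. The sum of deletion summits was 1.53 times that of WT summits, against 1.59 times around all WT summits, and that of rescue summits 1.11 times against 1.10. The median ratio per site was taken where the WT list had a summit in the flanks, which held for 353 of the 431 sites. It was 1.5, as over the 16069 WT summits with such flanks, and it was 1.00 with equal list lengths. Deletion summits were fewer than WT summits around 31 sites (7.19%, 5.11 to 10.0, against 4.48% of all), and none lay in the flanks of 51 sites (11.8%, 9.12 to 15.2, against 7.28%). The WT list itself had no summit in the flanks of 78 sites (18.1%, 14.7 to 22.0, against 15.6% of all). In the other weak classes the deletion list had none in the flanks of 18.7% (WT alone) and 10.5% (WT and deletion), and the WT list none in 29.2% and 19.6%. Empty flanks were thus shared with those classes. Deletion summits were fewer than WT summits around 5.88% (WT alone, 4.82 to 7.16) and 5.27% (WT and deletion, 4.52 to 6.14) of their summits. Both intervals overlap that of the lost and restored sites.

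Single genes varied in the number of summits that they held. These counts include the lost and restored sites themselves, which by the rule add to the WT and rescue counts and not to the deletion count. PARD3 held 5 WT, 8 deletion and 4 rescue summits, and SKAP1 8, 10 and 8. SLCO3A1, a prostaglandin and anion transporter with 2 sites 4645 bp apart, held 3, 1 and 5. F13A1 held 2, 0 and 1, and RPP40 1, 0 and 1. The only summits of RPP40 were the site itself and its rescue partner, and within PARD3 and SKAP1 the deletion count was the highest of the 3.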

How the data were processed

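Per the submitters' processing notes, FastQC 0.11.5, Bowtie2 2.2.9, SAMtools 1.12 and MACS2 were used, with the build hg38. The settings they were run with were not given in the labels. Deposited lists of summits hold 1 base per peak and, as the authors' value, a −log10 q; the lowest is 1.30, the −log10 of 0.05. Lists are not scaled to each other and the depth of the libraries is unknown. Coordinates are 1-based. Summits were matched by distance (500 bp), and each WT summit fell in 1 of 4 classes. With 1 list per genotype no test was made. Shares have 95% Wilson intervals and medians order-statistic intervals, both covering counting error only. A site was named by the protein-coding gene holding it, or else the nearest within 50 kb (RefSeq, GRCh38.p14). The text names the 25 sites highest in WT, 10 further highest in rescue, the 10 highest at protein-coding starts and up to 4 per gene list; some items are not reported here. The sites and gene lists were chosen with earlier results of these data known. Matching was tested on simulated data. The tools were matplotlib 3.10.9, SciPy 1.17.1, pandas 2.3.3, NumPy 2.4.6 and Python 3.11.15.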

Additional observations from a re-analysis of the deposited data

How the results depend on the processing

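The number of sites followed the matching distance and the list length. It was 2235 at 100 bp, 877 at 250 bp and 383 at 1000 bp. Of the 431 sites, 251 were among those at 100 bp and 373 among those at 1000 bp. It was 1729 with all lists cut to equal length, of which 374 were shared, 225 with a minimum −log10 q of 5 in every list, and 95 with that minimum in WT and rescue against the whole deletion list. At 100 bp the median WT value was 6.06. The share within 1 kb of a start was 12.1% at 100 bp and 13.3% with equal list lengths, where it was close to the 12.3% of all WT summits. The median ratio of deletion to WT summits in the flanks was 1.00 with equal list lengths, 1.00 from 1 to 20 kb and 1.59 from 1 kb to 1 Mb, and the ratio of sums, added after seeing the data, was 1.53. No promoter with a site held the stricter motif (0%). Counting only the gene that holds a site left 32 sites in the gene lists. The other 34 of 48 alternatives left a count within 1.5 times, or another value within the 95% interval, of the value reported. Among them were 428 sites without those near IgG summits and 403 without chromosome X. Another was the 365 sites taken from the authors' down list, which holds almost only sites of the rule and so is no separate check. No paired analysis was possible because the CTCF lists carry no replicate numbers, and no single replicate could be left out.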
